A study of Mus musculus with 9 samples.

Results

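The genes described here encode 5 fibroblast growth factors (FGFs: Fgf1, Fgf2, Fgf7, Fgf10 and Fgf18), 4 receptors or receptor-like proteins of the FGF family (Fgfr1, Fgfr2, Fgfr4 and Fgfrl1) and hepatocyte growth factor (Hgf). They were chosen by gene symbol, as growth factors that support the lung epithelium and the receptors of their family. They are 10 of the 43346 genes in the deposited table, and all 10 passed the filter for testing (a mean count of 25 or more), as did 16877 genes in all. The aged sham group (4 libraries) came from Col1a1-GFP mice that received saline into the trachea, and the aged bleo group (5 libraries) from Col1a1-GFP mice that received bleomycin, a drug that injures the lung and leads to fibrosis. Both groups were studied at day 30, at an age given as 72 weeks in the sample labels and as 18 months in the treatment description. All mice carried GFP under the Col1a1 promoter, so the sort, which kept GFP+ cells and removed CD45+, CD31+ and EpCAM+ cells, selected cells by the activity of a collagen promoter. Fibroblasts from young mice are not part of the data described here. The question this comparison addresses is how fibroblasts of aged lungs differ during persistent fibrosis from those of uninjured aged lungs.

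FGFs are secreted signals that act with heparan sulfate on receptor tyrosine kinases. FGF7 and FGF10 are made by mesenchymal cells and act mainly on an epithelial splice form of FGFR2, while FGF1 and FGF2 bind receptors on many cell types, and FGF18 acts in alveolar development. HGF is likewise made mainly by mesenchymal cells, is cleaved to its active form outside the cell, and signals through the receptor MET, which is best known on epithelial and endothelial cells. Counts per gene do not separate the receptors' splice forms.

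Total counts ran from 49921946 to 62370512 in aged sham and from 53833507 to 68260600 in aged bleo, and the limit for a count of 0, which is 3 counts, lay at 0.0409 to 0.0605 CPM. Levels are given as CPM (counts scaled to library size, TMM-normalized), and the limit covers counting error only. Fibroblast markers held the highest summed level of all marker lists (25146 to 30776 CPM in aged sham and 55559 to 73117 CPM in aged bleo), with Pdgfra, a fibroblast receptor, at 912 ± 94.0 CPM (SD, n = 4) and 676 ± 177 CPM (SD, n = 5). The list did not move as a whole, as 4 of its 8 genes were called higher (Col1a1, Col1a2, Col3a1 and Mfap4) and 2 lower (Dcn, from 8122 to 2795 CPM on average, and Tcf21, from 106 to 49.6 CPM). Marker sums of other cell types were lower, and no marker of any list was at 0 in all libraries. Aged sham 4 and aged bleo 4 held the highest neutrophil marker sums (1018 and 906 CPM, against 84.9 to 449 CPM in the other libraries). In these bulk samples, fewer cells of a type and less RNA per cell cannot be told apart. Nothing in the labels says more of the replicates than a number, so p-values measure the spread between these libraries.

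The promoters of Hgf, Fgf7 and Fgf10 are shown because these genes encode the secreted signals to the epithelium with the highest FPKM levels in this set after injury, and their transcripts moved differently. Each line is the 250 bases before a transcription start on the coding strand, 5′ to 3′, from RefSeq (GRCm38.p6). Capitals mark the NFAT core GGAAA on either strand (TTTCC on the strand shown). This motif was searched because NFATc1 is a factor that the study examined.
Hgf, chr5:16553245-16553494, plus strand: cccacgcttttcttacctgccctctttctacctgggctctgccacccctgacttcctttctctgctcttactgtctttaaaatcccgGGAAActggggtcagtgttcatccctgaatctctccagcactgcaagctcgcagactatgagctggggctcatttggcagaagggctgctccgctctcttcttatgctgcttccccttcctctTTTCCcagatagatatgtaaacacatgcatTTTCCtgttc
Fgf7, chr2:126034408-126034657, plus strand: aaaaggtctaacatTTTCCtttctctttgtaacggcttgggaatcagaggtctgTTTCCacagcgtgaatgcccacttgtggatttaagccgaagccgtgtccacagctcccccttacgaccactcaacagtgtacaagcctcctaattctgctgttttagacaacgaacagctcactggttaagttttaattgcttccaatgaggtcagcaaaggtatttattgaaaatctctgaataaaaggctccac
Fgf10, chr13:118714449-118714698, plus strand: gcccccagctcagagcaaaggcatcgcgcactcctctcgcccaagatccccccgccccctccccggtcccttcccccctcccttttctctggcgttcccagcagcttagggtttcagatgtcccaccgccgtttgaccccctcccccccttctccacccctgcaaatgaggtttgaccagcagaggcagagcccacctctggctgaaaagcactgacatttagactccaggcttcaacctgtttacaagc

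The NFAT core had 3 matches in the Hgf window shown, 2 in that of Fgf7 and 0 in that of Fgf10. Of all 32851 promoter windows of this length, 55.6% hold at least 1 match, and the mean is 0.854 matches per window. The windows of Fgf2 and Fgfr2, not shown, had 1 match each, and those of Fgfrl1, Fgf18 and Fgfr4 had 0. Another Hgf entry, with its start at 16553901, is not shown. That window had 2 matches and overlaps Hgf exons. Neither Hgf window held any of the other motifs searched on both strands. These were the GC box GGGCGG (in 32.7% of all windows), the TATA box TATAAA (12.4%), the CCAAT box CCAAT (33.8%) and the AP-1 motif TGANTCA (6.75%). The Fgf7 window held 1 CCAAT box, and the Fgf10 window held 1 GC box. The Fgf10 window had 61.2% G and C, against 50.8% for Hgf, 43.6% for Fgf7 and a median of 52.4% over all windows. None of these 3 windows overlaps an annotated exon, and the Fgf10 window lies inside the gene's span in the deposited table, which begins at an earlier start. A match is a description of the letters and not a binding site. Of the 10 genes, 8 have a promoter entry; Fgf1 and Fgfr1 have none.

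Hgf rose in aged bleo, and none of the FGF ligands and receptors passed both thresholds in either direction. Of the receptors, Fgfr1, Fgfrl1 and Fgfr2 passed the FDR threshold alone, with log2 fold changes of -0.53, -0.39 and 0.53. By edgeR's quasi-likelihood test with Benjamini-Hochberg adjustment over all genes tested (FDR), a gene was called when its FDR was below 0.10 and its change exceeded 1.5-fold. Of the 10 genes, 1 was called higher, against 12.3% of all genes tested. None was called lower, against 11.5% of all genes tested, and DESeq2 and limma called 0 lower as well. At an unadjusted p under 0.05, 2 of the 10 were lower and 2 higher. An FDR under 0.10 at any fold was reached by 4 of the 10 and by 44.8% of all genes tested. The median log2 fold change was 0.05 over the 10 genes and 0.01 over all genes tested.

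**Figure D1:**
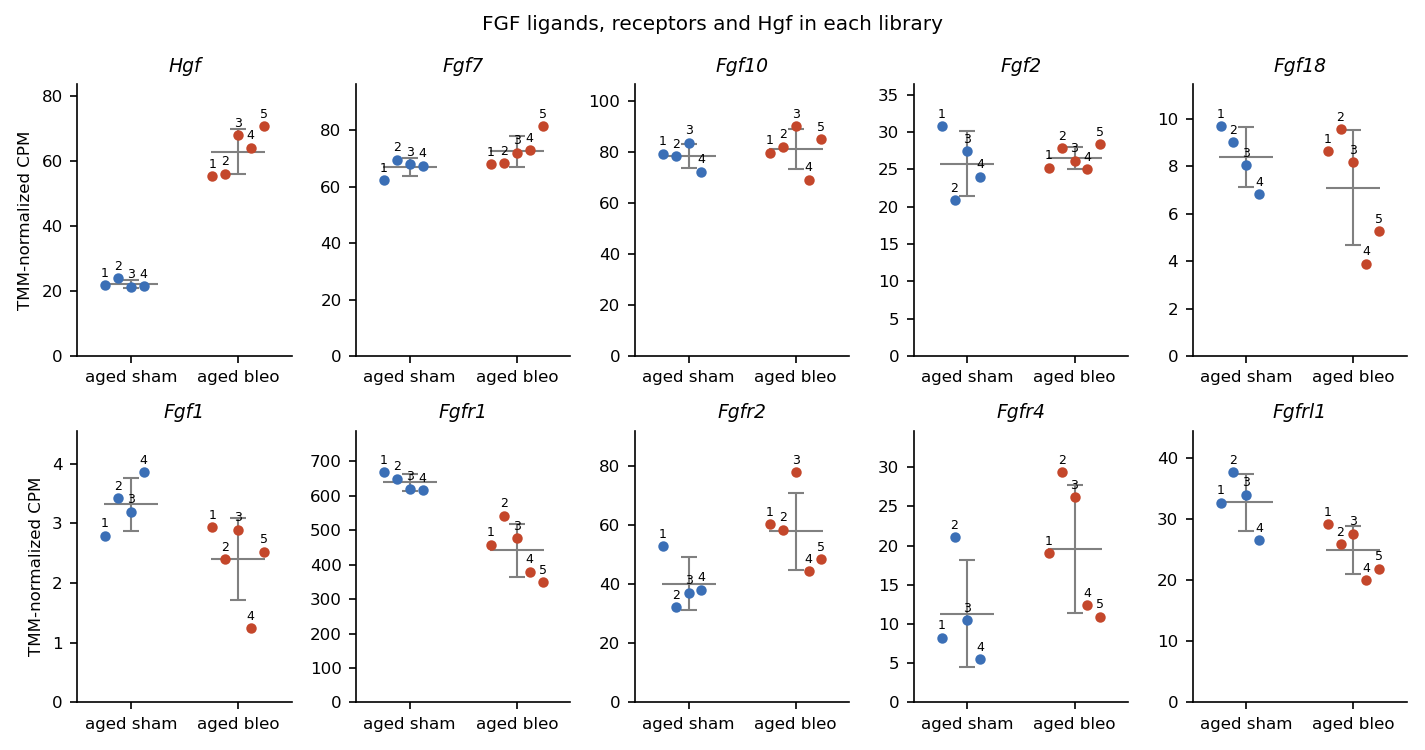
TMM-normalized CPM of each gene in each of the 4 aged sham (blue) and 5 aged bleo (red) libraries, on axes that start at 0, with the replicate number above each point and the mean and SD in grey. The aged bleo libraries lie above all aged sham libraries for Hgf and below them for Fgfr1, and the groups overlap for the other 8 genes.

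Hgf (ENSMUSG00000028864, chr5:16553550-16619439, GRCm38) had 21.7, 23.8, 21.3 and 21.3 CPM in aged sham 1 to 4. Its levels in aged bleo 1 to 5 were 55.3, 56.0, 67.9, 64.0 and 70.7 CPM. The lowest injured library thus stood above the highest uninjured one, a separation that 16.1% of all genes tested showed in this direction. The mean was 22.0 ± 1.204 CPM (SD, n = 4) in aged sham and 62.8 ± 6.93 CPM (SD, n = 5) in aged bleo, a ratio of 2.85. The fitted log2 fold change was 1.51 (SE 0.09, 95% interval 1.30 to 1.72, FDR = 1.85e-05), and Hgf was number 28 of all genes tested when ordered by p. The spread between replicates was small in both groups, at 5.46% and 11.0% of the mean. The summed level of the macrophage markers was also higher in every aged bleo library, at 435 to 1382 CPM against 130 to 246 CPM in aged sham. Lyz2 made up most of this sum, with a mean of 628 CPM after bleomycin and 117 CPM after saline. Of the 7 genes in that list, 5 were called higher. Only Lyz2 and Cd68 had every injured library above every uninjured one. Csf1r (edgeR, FDR = 0.475) and Marco (edgeR, FDR = 0.340) were not called. Within aged bleo, the lowest macrophage sum and the lowest Hgf level were both in aged bleo 1, the highest macrophage sum was in aged bleo 4, and the highest Hgf level was in aged bleo 5. When both libraries with the highest neutrophil and pan-leukocyte sums (aged bleo 4 and aged sham 4) were left out, the log2 fold change of Hgf was 1.47 (edgeR, FDR = 0.000433). The part of macrophage transcripts in the result was not tested.

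The genes whose pattern over the 9 libraries was most like that of Hgf, by the root mean square difference of centred log2 CPM, were Cdk18 (0.10), Epha3 (0.11) and Dusp14 (0.12). The same measure of the size of the Hgf pattern itself was 0.76. Cdk18 encodes a cyclin-dependent kinase, Epha3 an ephrin receptor, and Dusp14 a dual-specificity phosphatase, and their log2 fold changes were 1.65, 1.40 and 1.39.

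Fgf7 and Fgf10, the ligands of epithelial FGFR2, stayed close to their uninjured levels. Fgf7 (chr2:126034658-126091185) had 62.3, 69.7, 68.1 and 67.5 CPM in aged sham 1 to 4, and 68.1, 68.3, 72.1, 73.0 and 81.6 CPM in aged bleo 1 to 5. The groups overlapped, with aged bleo 5 the highest library. For Fgf10 (chr13:118669791-118792115), the aged sham libraries had 79.3, 78.2, 83.5 and 72.2 CPM and the aged bleo libraries 79.7, 82.0, 90.1, 69.1 and 84.8 CPM. Both the lowest and the highest Fgf10 level were found in aged bleo. Fitted log2 fold changes were 0.12 for Fgf7 (SE 0.07, 95% interval -0.04 to 0.28, FDR = 0.217) and 0.05 for Fgf10 (SE 0.08, 95% interval -0.14 to 0.24, FDR = 0.662). Both intervals lie within 1.5-fold in either direction.

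Fgf2, a ligand of broad receptor range that also binds matrix heparan sulfate, had 30.8, 20.9, 27.4 and 24.02 CPM in aged sham 1 to 4. In aged bleo 1 to 5 it had 25.2, 27.9, 26.2, 24.999 and 28.3 CPM, all within the range of the uninjured libraries. Its log2 fold change was 0.04 (SE 0.11, 95% interval -0.21 to 0.29, FDR = 0.802), again within 1.5-fold, and it was -0.05 without aged sham 2. In the GENCODE M21 annotation, Fgf2 shares 640 exon bases with Nudt6 on the opposite strand. The spans in the deposited table also overlap, as Fgf2 ends at 37405377 and Nudt6 starts at 37404910. The library kit does not mark strand, so reads in shared bases cannot be assigned to either gene. Nudt6 was not called (log2 fold change -0.08, FDR = 0.491). An overlap of 123 exon bases exists in GENCODE M21 between Fgf10 and the antisense gene Gm16263. That gene was not called either (log2 fold change -0.04, FDR = 0.841).

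The less abundant ligands were not called, and their intervals reach beyond 1.5-fold. Fgf18 (chr11:33117430-33147400) had 9.71, 9.03, 8.04 and 6.82 CPM in aged sham 1 to 4 and 8.65, 9.56, 8.18, 3.89 and 5.25 CPM in aged bleo 1 to 5. Only aged bleo 4 and 5 lay below the uninjured range. Its log2 fold change was -0.24 (SE 0.26, 95% interval -0.82 to 0.33, FDR = 0.491). Fgf1 (ENSMUSG00000036585) had 2.79, 3.42, 3.19 and 3.85 CPM in aged sham and 2.94, 2.40, 2.90, 1.24 and 2.53 CPM in aged bleo. The groups overlapped through aged sham 1, and aged bleo 4 was the lowest library. The log2 fold change of Fgf1 was -0.47 (SE 0.24, 95% interval -1.02 to 0.08, FDR = 0.165).

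Among the receptors, Fgfr1, the main FGF receptor of mesenchymal cells, was lower in every injured library. Fgfr1 (chr8:25513654-25575714) had 668, 650, 621 and 617 CPM in aged sham 1 to 4. Its levels in aged bleo 1 to 5 were 459, 543, 478, 380 and 349 CPM. The groups did not overlap, and 16.1% of all genes tested showed a separation in this direction. The mean went from 639 ± 24.5 CPM (SD, n = 4) to 442 ± 77.8 CPM (SD, n = 5), a ratio of 0.691. Fitted on the log2 scale, the fold change was -0.53 (SE 0.13, 95% interval -0.83 to -0.24, FDR = 0.0138), which passes the FDR but not the fold threshold of 0.58 on the log2 scale. Without aged bleo 2, the injured library with the highest Fgfr1 level, it was -0.62 (edgeR, FDR = 0.00456) and past both thresholds. In GENCODE M21, the antisense gene Gm16159 shares 164 exon bases with Fgfr1. It was called lower (log2 fold change -0.75, FDR = 0.00743), and reads in the shared bases cannot be assigned to either strand.

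Fgfr2, whose epithelial form binds FGF7 and FGF10 and whose mesenchymal form binds other FGFs, had 53.0, 32.1, 37.1 and 38.2 CPM in aged sham 1 to 4. In aged bleo 1 to 5 its levels were 60.3, 58.5, 77.9, 44.3 and 48.5 CPM. Aged sham 1 alone overlapped the injured range, above aged bleo 4 and 5. The mean was 40.1 ± 8.97 CPM (SD, n = 4) against 57.9 ± 13.0 CPM (SD, n = 5). In the fit, the log2 fold change was 0.53 (SE 0.19, 95% interval 0.10 to 0.95, FDR = 0.0548), under the fold threshold. It was past both thresholds without aged sham 1 (0.69, edgeR FDR = 0.0237) and without aged bleo 4 (0.60, edgeR FDR = 0.0323). Without aged bleo 5 it was also past both (0.59, edgeR FDR = 0.0596). It missed the FDR threshold without aged sham 2 (0.44, edgeR FDR = 0.141) and without aged sham 3 (0.50, edgeR FDR = 0.113). The same held without aged sham 4 (0.51, edgeR FDR = 0.119) and without aged bleo 3 (0.40, edgeR FDR = 0.102). Mesothelial marker sums (5 genes) were 27.6 to 79.4 CPM in the uninjured and 32.5 to 118 CPM in the injured libraries. They were highest in aged sham 1 and aged bleo 3, the libraries with the highest Fgfr2 level in each group. The lowest mesothelial sums were in aged sham 3 and aged bleo 4, and the lowest Fgfr2 levels in aged sham 2 and aged bleo 4. Of the 5 mesothelial genes, 0 were called. Epithelial marker sums were 11.6 to 96.6 CPM and 19.4 to 62.9 CPM, and the lowest aged sham value was in aged sham 1. Of the 9 epithelial genes, 1 was called higher and 1 lower. The part of either in the Fgfr2 level was not tested. The span given for Fgfr2 in the deposited table (chr7:130162451-133123350) reaches into Ctbp2 on the same strand. Their exons share 314 bases in GENCODE M21, and Ctbp2 had a log2 fold change of 0.31 (FDR = 0.0243, not called).

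Fgfr4 (chr13:55152640-55168759), a receptor best known in liver, varied most within groups among the 10 genes. It had 8.27, 21.05, 10.5 and 5.51 CPM in aged sham 1 to 4 and 19.0, 29.3, 26.2, 12.4 and 10.9 CPM in aged bleo 1 to 5. Aged sham 2 stood above 3 of the 5 injured libraries. The SD was 59.9% of the mean in aged sham and 41.7% in aged bleo. The log2 fold change was 0.79 (SE 0.42, 95% interval -0.17 to 1.74, FDR = 0.177). Without aged sham 2 it was 1.27 (edgeR, FDR = 0.0427) and past both thresholds. Leaving out any other single library gave no call. The lowest value was 0.56 (edgeR, FDR = 0.345), without aged sham 4.

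Fgfrl1, a receptor-like protein that binds FGFs but lacks the kinase domain, was lower at a size under the fold threshold. Fgfrl1 (chr5:108694229-108706950) had 32.7, 37.6, 34.0 and 26.6 CPM in aged sham 1 to 4 and 29.2, 25.9, 27.6, 19.9 and 21.9 CPM in aged bleo 1 to 5. The groups overlapped through aged sham 4. Its fitted log2 fold change was -0.39 (SE 0.14, 95% interval -0.70 to -0.09, FDR = 0.0482). It missed the FDR threshold without aged sham 2 (-0.32, edgeR FDR = 0.131) and without aged sham 3 (-0.37, edgeR FDR = 0.1005). The same held without aged bleo 5 (-0.35, edgeR FDR = 0.103).

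**Figure D2:**
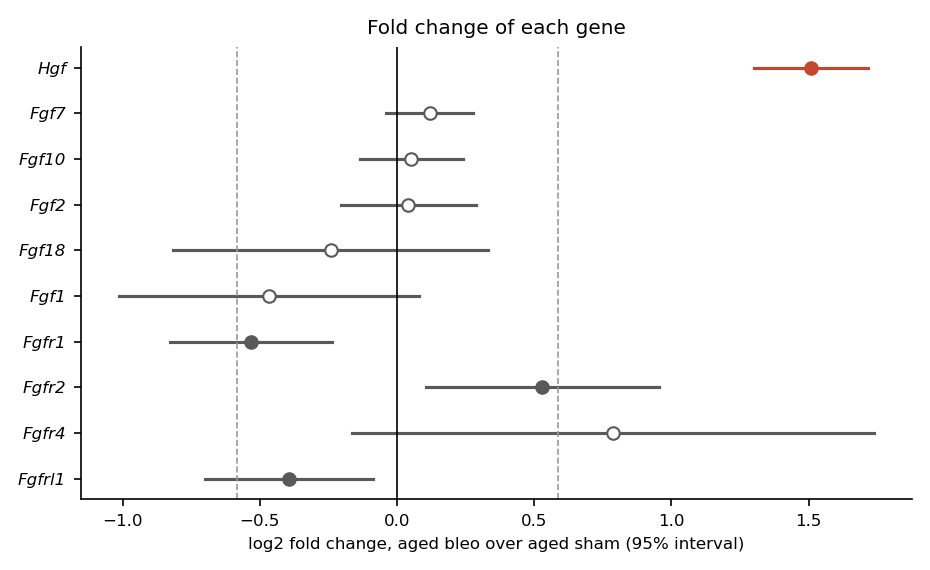
Log2 fold change of aged bleo over aged sham for each gene (points) with its 95% interval (lines). Filled points have an FDR under 0.10, red marks the gene called, and dashed lines mark 1.5-fold in either direction. Hgf lies beyond 1.5-fold with its whole interval, and the intervals of Fgf2, Fgf7 and Fgf10 lie within it.

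Within the injured group, aged bleo 4 and 5 were the lowest libraries for 5 of the 10 genes (Fgf18, Fgfr1, Fgfr2, Fgfr4 and Fgfrl1), which include all receptors. This holds for 28.7% of all genes tested. The pattern was noticed after the values were seen.

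Levels of different genes were compared per length, with the deposited FPKM values. In aged sham, Fgfr1 stood highest at 33.0 ± 1.54 FPKM (SD, n = 4), followed by Fgf7 at 8.64 ± 0.478 FPKM. The next were Fgf10 (7.14 FPKM), Fgf2 (6.00 FPKM) and Fgfrl1 (5.17 FPKM), whose ranges overlapped from neighbour to neighbour. Below them came Hgf at 3.36 ± 0.222 FPKM, then Fgf18 (2.97 FPKM), Fgfr2 (2.32 FPKM) and Fgfr4 (1.35 FPKM), again with overlapping ranges between neighbours. Fgf1 was lowest at 0.299 FPKM. In aged bleo, Fgfr1 was again highest at 23.3 ± 3.63 FPKM (SD, n = 5), and Hgf moved from the sixth to the second place at 9.80 ± 1.14 FPKM, with a range that overlapped that of Fgf7 (9.62 ± 0.844 FPKM). Fgf10 (7.57 FPKM) and Fgf2 (6.33 FPKM) followed, and after them Fgfrl1 (4.02 FPKM), Fgfr2 (3.43 FPKM), Fgf18 (2.56 FPKM) and Fgfr4 (2.36 FPKM), whose ranges overlapped from neighbour to neighbour. Fgf1 stayed lowest at 0.221 FPKM. The gene length behind these values was 2755 bases for Hgf and 1801 bases for Fgf2, against 7186 and 6782 exon bases in GENCODE M21, so the places of these genes depend on the length used.

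**Figure D3:**
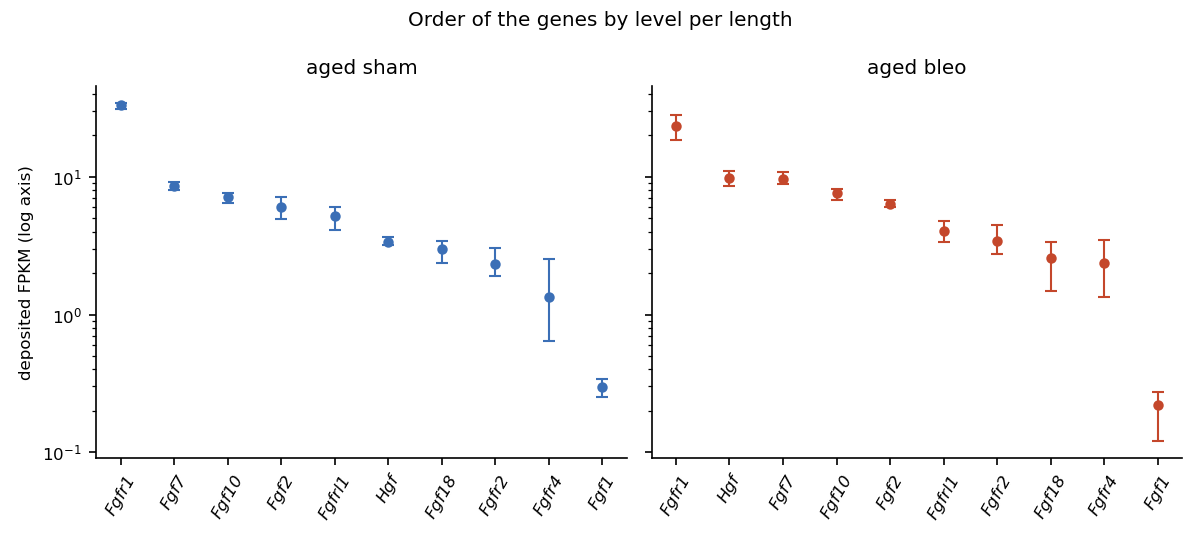
Mean deposited FPKM of each gene on a log axis, ordered from high to low in aged sham (left) and aged bleo (right), with bars from the lowest to the highest library. Hgf stands sixth in aged sham and second in aged bleo, and Fgfr1 stands first in both.

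Ratios within a library, chosen after the values were seen and given without a test, do not depend on library scaling. Hgf over Fgf7 was 0.369 to 0.410 in the aged sham libraries and 0.957 to 1.11 in the aged bleo libraries, on the FPKM scale. Fgfr2 over Fgfr1 was 0.0554 to 0.0889 in aged sham and 0.121 to 0.183 in aged bleo. The ranges did not overlap for either ratio. Fgf7 over Fgf10 was 1.11 to 1.32 and 1.13 to 1.496, with overlap.

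Of 66 other genes of FGF and HGF signalling in the table, 50 were tested, of which 8 were called higher, 10 lower and 32 not called, against 12.3% higher and 11.5% lower over all genes tested. Their median log2 fold change was 0.04, against 0.01 over all genes tested. The other receptors fell in part. Met, the receptor of HGF, had 39.2, 29.1, 31.1 and 39.0 CPM in aged sham 1 to 4 and 10.4, 15.1, 15.6, 4.74 and 6.24 CPM in aged bleo 1 to 5. Every injured library was below every uninjured one, as for 16.1% of all genes tested. The log2 fold change of Met was -1.73 (SE 0.34, 95% interval -2.49 to -0.98, FDR = 0.00518), opposite in direction to that of its ligand. Endothelial marker sums also differed in this direction, at 164 to 202 CPM in aged sham and 26.6 to 70.9 CPM in aged bleo. Most of that sum was Tek, the angiopoietin receptor (161 and 28.9 CPM on average), which was called lower. The other endothelial genes had lower levels, with means in aged sham and aged bleo of 6.12 and 4.34 CPM for Pecam1, 6.90 and 4.68 CPM for Vwf, 1.67 and 1.64 CPM for Cdh5, 0.989 and 1.05 CPM for Cldn5, and 3.25 and 4.97 CPM for Kdr. Of these 5 genes, Kdr was called higher and the others were not called, and their part in the Met result was not tested. Mst1r, the MET-related receptor of macrophage-stimulating protein, had a log2 fold change of -0.88 (FDR = 0.0565) and was called lower, but not without aged sham 1, aged sham 3 or aged bleo 5 (edgeR, FDR = 0.105 to 0.116). Fgfr3 was not called (0.21, FDR = 0.697), and the klotho coreceptors Kl and Klb were under the count minimum.

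Of 13 other secreted ligands, 3 were tested. Fgf9 and Fgf16 fell, with log2 fold changes of -1.07 (FDR = 0.0353) and -1.40 (FDR = 0.0177). All aged bleo libraries were below all aged sham libraries for both, as for 16.1% of all genes tested. Fgf23, best known as a hormone of phosphate balance made in bone, rose by 1.98 on the log2 scale (SE 0.47, FDR = 0.0120). It had 3.68, 1.73, 1.38 and 2.54 CPM in aged sham and 10.9, 7.11, 12.8, 2.70 and 12.7 CPM in aged bleo, so that aged bleo 4 lay within the uninjured range. Below the count minimum, Fgf5 had 36 to 44 counts in the aged sham and 5 to 10 in the aged bleo libraries, and Fgf21 had 1 to 2 and 11 to 63. These low counts were left out of the reported fit, and only the alternative without a count filter included them. Of the 4 intracellular FGF homologous factors, which are not secreted and modulate sodium channels, Fgf13 (-1.29, FDR = 0.0186) and Fgf14 (-1.07, FDR = 0.0506) fell on the log2 scale, and Fgf14 was not called without aged sham 2 or aged bleo 5 (edgeR, FDR = 0.102 and 0.108).

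None of the 9 adaptors and effectors that carry the signal from the receptors was called by edgeR, with log2 fold changes between -0.27 (Shb) and 0.27 (Plcg1). DESeq2 and limma on log2 CPM called 0 of them as well. The unadjusted p from edgeR was under 0.05 for 2 of the 9, Frs2 and Plcg1. Of the 13 feedback inhibitors and target genes, 3 were called higher, 2 lower and 8 not called, beside 12.3% and 11.5% of all genes tested. Their median log2 fold change was 0.21, against 0.01 over all genes tested. The transcription factor genes Etv4 and Etv1 rose by 2.47 (SE 0.45, FDR = 0.00409) and 1.00 (SE 0.10, FDR = 0.000208) on the log2 scale, while their relative Etv5 was not called (0.21, FDR = 0.172). Etv4 levels were 2.02 to 5.75 CPM in the uninjured and 7.73 to 30.6 CPM in the injured libraries, with the highest level in aged bleo 4. Spred1, an inhibitor of the Ras pathway, rose (0.79, FDR = 0.00146). Spry2, a feedback inhibitor of receptor tyrosine kinases, fell from 69.2 ± 5.11 CPM (SD, n = 4) to 32.0 ± 6.91 CPM (SD, n = 5), with a log2 fold change of -1.12 (FDR = 0.00112). Flrt2, an adhesion protein that interacts with FGF receptors, also fell (-0.71, FDR = 0.0284), but was not past the fold threshold without aged bleo 4 and aged sham 4 together (-0.56, edgeR FDR = 0.0537). Dusp6, a phosphatase of ERK, was not called (0.21, FDR = 0.167), nor were Spry1 (0.25, FDR = 0.219) and Spry4 (0.51, FDR = 0.0397).

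Of 12 genes for heparan sulfate and FGF carriers, 4 were called higher and 1 lower, beside 12.3% and 11.5% of all genes tested. Their median log2 fold change was 0.30, against 0.01 over all genes tested. Ext1, which extends the heparan sulfate chain, rose by 0.80 (FDR = 0.000634), and the sulfotransferase genes Hs6st1, Hs2st1 and Hs6st2 rose by 0.82 (FDR = 0.000229), 0.63 (FDR = 0.00138) and 1.23 (FDR = 0.0328) on the log2 scale. Hs2st1 lay close to the fold threshold and was not called without aged bleo 5 (0.58). Hs6st2, with 54.0 counts on average, was not called without aged bleo 4 and aged sham 4 together (1.10, edgeR FDR = 0.106) or with limma on log2(FPKM + 0.1) (0.38) and log2(FPKM + 1) (0.06). Sulf2, which removes 6-O-sulfate from heparan sulfate outside the cell, had 335, 313, 336 and 337 CPM in aged sham 1 to 4 and 181, 210, 178, 88.6 and 106 CPM in aged bleo 1 to 5. It fell in every injured library below the uninjured range, as did 16.1% of all genes tested. Its log2 fold change was -1.11 (SE 0.24, FDR = 0.00766), while the related Sulf1 was not called (0.44, FDR = 0.0311). Of 6 tested genes for activation of HGF or inhibitors of that step, Hgfac, which encodes the HGF activator, was called lower at a level close to the count minimum (0.772 and 0.390 CPM, log2 fold change -0.98, FDR = 0.0275). Plau and Plat, the plasminogen activators, were not called (0.23, FDR = 0.436, and -0.28, FDR = 0.157).

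**Figure D4:**
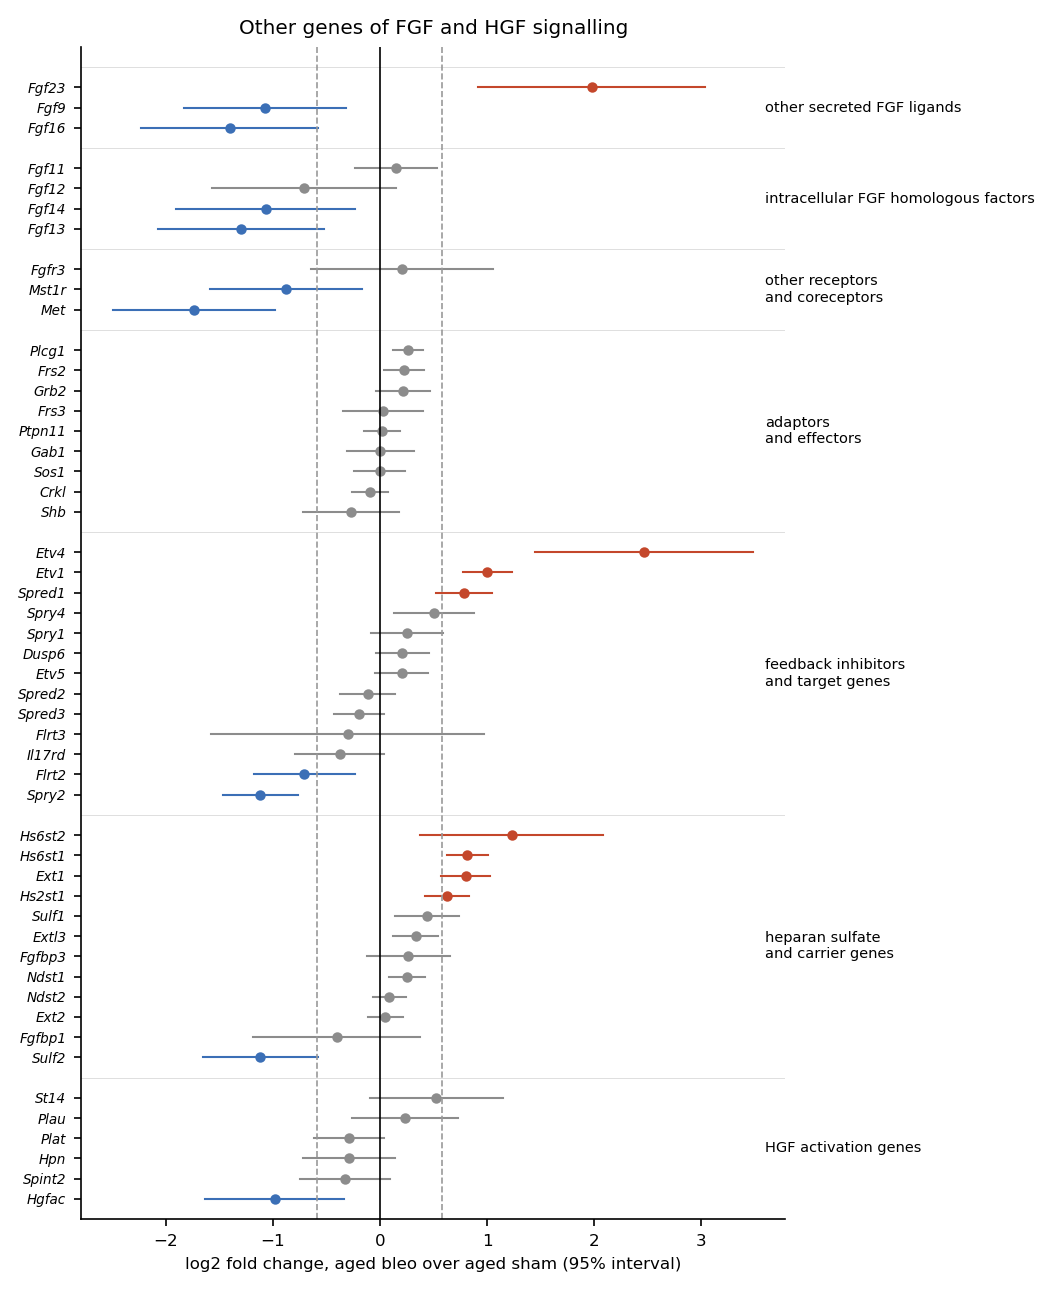
Log2 fold change of aged bleo over aged sham with 95% intervals for the 50 other signalling genes tested, grouped by list. Red points were called higher (8 genes), blue points lower (10 genes), grey points were not called, and dashed lines mark 1.5-fold. The adaptors lie close to 0, while Etv4 and Fgf23 lie farthest to the right and Met farthest to the left.

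**Figure D5:**
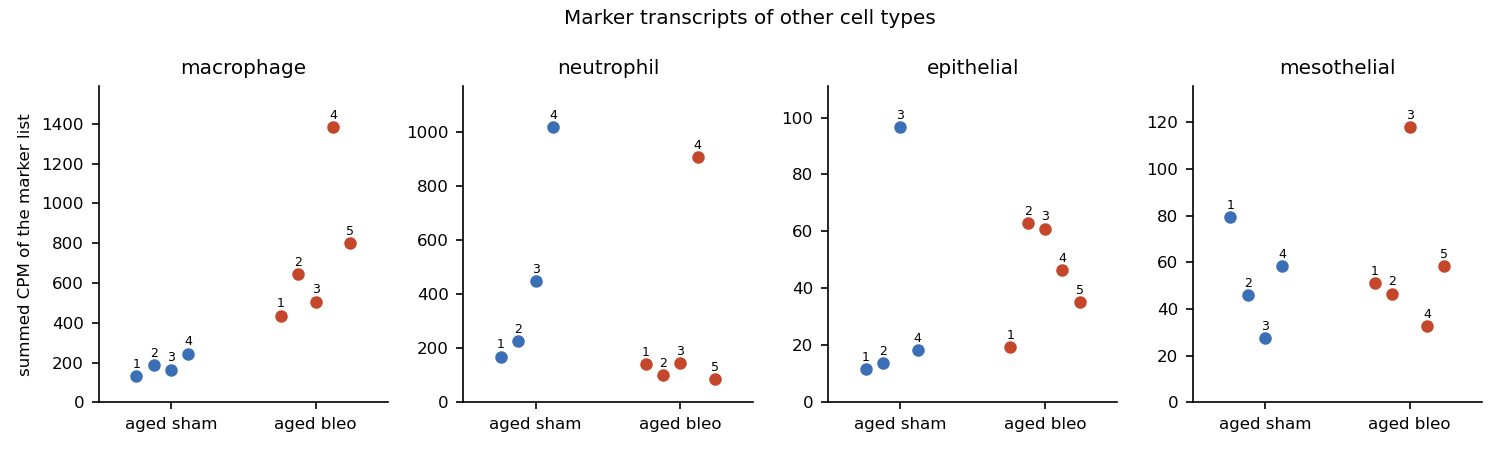
Summed CPM of the markers of macrophages, neutrophils, epithelial and mesothelial cells in each library, on axes from 0, with replicate numbers above the points. The macrophage sum is higher in every aged bleo library (435 to 1382 CPM) than in every aged sham library (130 to 246 CPM), and the other sums overlap between the groups.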

How the data were processed

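RNA of sorted lung fibroblasts (4 aged sham libraries, 5 aged bleo libraries) was sequenced from polyadenylated transcripts with a kit that does not mark strand. The authors deposited 1 table with raw read counts per gene and FPKM values, which are scaled by gene length and library total. The submitters' processing notes name STAR 2.5.2b, featureCounts of Subread, and mm10 (GRCm38), with no parameters, and 78.9% of 42462 shared gene identifiers have the positions of GENCODE M21. Libraries were grouped by their labels, and 0 columns of values lacked a sample. Pairs of libraries of a group differed by more than the sampling noise.

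The quasi-likelihood test of edgeR 4.0.16 (R 4.3.3) was run on TMM-normalized counts for all genes whose mean count was 25 or more. The thresholds for a call, an FDR below 0.10 and a change of more than 1.5-fold, are those of the study. CPM uses TMM factors, and log2 CPM a prior count of 2. The test was checked on simulated counts. The alternatives were DESeq2 1.42.0, limma 3.58.1 on log2 CPM and on log2(FPKM + 0.1) and log2(FPKM + 1), RLE factors or library size only, other count filters, libraries left out, the replicate number as a block, and the ending of the library name as a covariate. The genes named are the 10 genes by symbol, 7 lists of other signalling genes by counts with values for those called and a few examples, genes that overlap them, and the 3 genes most like the called gene with the largest rise; no fall was called. Fgf5 and Fgf21, which the reported fit left out, and uncalled examples were added after their values were seen. The genes and lists were chosen with earlier results of these data known. Of 67 signalling genes listed, Spry3 was not used.

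The 8 marker lists cover fibroblasts, leukocytes in general, macrophages, neutrophils, endothelial, epithelial, and mesothelial cells, and smooth muscle cells with pericytes. Sums not given elsewhere were 127 to 440 CPM in aged sham and 128 to 679 CPM in aged bleo for leukocytes in general, and 2680 to 5334 CPM and 1878 to 3062 CPM for smooth muscle cells and pericytes.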

Additional observations from a re-analysis of the deposited data

Results flagged for a closer look

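Hgf in aged sham 2 stood apart from the other aged sham libraries. Its level there was 23.8 CPM, and the nearest of the other 3 libraries had 21.7 CPM. The gap was 0.854 of the range of the 4 libraries, above the 95% critical value of Dixon's test for 4 samples. Chance flags about 1 in 20 groups, and 20 groups of values were looked at. The gap of this library to the others is small beside the distance to the aged bleo libraries, which started at 55.3 CPM.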

How the results depend on the processing

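The rise of Hgf kept its direction and its call under all 20 alternatives, with log2 fold changes of 1.30 to 1.55. Met kept its call under the same 20 (-2.87 to -0.88). Over all genes, 4022 were called, against 1785 with limma on log2(FPKM + 1), which understates the change of low genes, and 6394 with the library name ending as a covariate. All aged sham libraries and aged bleo 4 share an ending, whose meaning is not stated in the sources used here. This covariate therefore leaves aged bleo 4 against aged sham. More of all genes tested were called lower in that fit as well. Its counts of genes called lower thus have a background above the 11.5% of the reported fit. Leaving out a library gave 3525 to 4597 genes called in all, 1 to 2 of the 10 genes higher (Fgfr2 or Fgfr4 joined Hgf) and 0 to 1 lower (Fgfr1). With the name ending, 4 of the 10 were lower, namely Fgf1 (-1.41), Fgf18 (-1.11), Fgfr1 (-0.75) and Fgfrl1 (-0.71), and 17 signalling genes were lower, against 10 in the reported fit and 6 with log2(FPKM + 1). Fgf2 changed sign without aged sham 2 (-0.0502; leave-one-out range -0.05 to 0.14) and with the name ending (-0.045), and Fgf10 with the name ending (-0.18). Fgf23 (0.21) and Ext1 (0.56) were not called with the name ending, and Fgf9 (-0.35), Fgf13 (-0.20), Fgf14 (-0.53), Hs2st1 (0.55) and Hgfac (-0.10) were not called with log2(FPKM + 1). The cause of these changes was not tested.

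With the replicate number as a block, 3536 genes were called, and 2 of the 10 genes were higher, as Fgfr4 joined Hgf. Deviations of same-numbered libraries correlated between -0.13 and 0.33, and 2 of 8 numbered libraries correlated best with their own number, so the numbers were not taken to pair the libraries. Without both aged bleo 4 and aged sham 4, 3596 genes were called. Depth limits the genes with few counts, such as Fgf1 (156 counts on average), Hs6st2 (54.0) and Hgfac (31.4).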
